A study of Mus musculus with 6 samples.

Results

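Pericytes, the contractile support cells wrapped around capillaries, were read from single-cell libraries of the male mouse genioglossus, a muscle that draws the tongue forward and keeps the pharynx from closing. A barcode was taken as a pericyte when at least 300 genes were detected, when its unique molecular identifiers (UMIs) for Kcnj8, Abcc9, Higd1b and Vtn summed to at least 3 and to more than those for the smooth muscle genes Myh11, Pln and Tesc, when Pecam1 and Cdh5 together had at most 1 UMI, and when Ptprc and Pdgfra had 0. This rule took 2011 of 56309 barcodes with at least 300 genes. The study compared a control group with a group modelled for obstructive sleep apnea (OSA), both sampled at week 4 and both labelled batch 1, with 3 libraries each, and the labels give no strain, age or way of modelling OSA. The count matrices used were those of control replicate 2 and of all OSA replicates (1, 2 and 3). The counts of control replicates 1 and 3 are not analysed here. The comparison therefore set 1 control library against 3 OSA libraries, and the condition cannot be told apart from what is particular to that 1 control library. Nothing in the labels says that the libraries came from separate animals, so a p-value here reflects only how far these libraries spread, which may be technical.

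Pericytes share the basement membrane of the capillary endothelium. Endothelial PDGF-B recruits and keeps them through PDGF receptor beta, and Notch3 is their main Notch receptor. They express the ATP-sensitive potassium (KATP) channel made of Kcnj8 (Kir6.1) and Abcc9 (SUR2), which links their membrane potential to metabolic state, and they respond to endothelin, angiotensin and nitric oxide by changing capillary tone. In skeletal muscle they lie between the capillaries and the myofibres and also release factors that act on endothelium and on myeloid cells. As all levels here are shares of a cell's or library's transcripts, less RNA of a gene per cell and fewer cells that express it cannot be told apart in the summed values.

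The control library gave 499 pericytes and OSA replicates 1, 2 and 3 gave 591, 403 and 518. Their summed UMIs were 1604736 in the control, against 1960432, 1483024 and 2334045 in the OSA libraries. The median pericyte held 2393 UMIs in the control, against 2387, 2837 and 2836.5 in the OSA libraries, well under the smooth muscle medians of 5925.5 to 7006.5 UMIs in the same libraries. Mitochondrially encoded transcripts were 0.0316% of pericyte UMIs in the control, against 0.0256%, 0.0869% and 0.0304% in the OSA libraries, so OSA replicate 2 had the highest share. Between 41 and 67 barcodes were shared by any 2 of the barcode lists of the 6 libraries, and 1 pericyte barcode was shared by OSA replicates 2 and 3. No pair of pericyte sums was a copy of another, since the chi-square per degree of freedom over genes was 3.10 to 15.7. All 3 pairs with OSA replicate 3 were at or above 11.01, and the other 3 were at or below 3.61.

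The limit on Pecam1 and Cdh5 removed the most barcodes, taking those left in the control from 1644 to 654 and in OSA replicate 3 from 1536 to 762. The 4 marker genes were the basis of the choice and are given as a description. Levels are in CPM, the UMIs of a gene scaled to the same total of UMIs in every library and class. Kcnj8 was at 1079 CPM in the control members and at 1129, 1182 and 618 CPM in the OSA libraries. Abcc9 was at 1152 CPM and at 1124, 999 and 473 CPM. Higd1b was at 990 CPM and at 984, 968 and 628 CPM, and Vtn, the matrix protein vitronectin, was at 1057 CPM and at 1000, 744 and 552 CPM. All 4 were lowest in OSA replicate 3. At the edge of the rule, barcodes with a marker sum of 3, just inside, had an Rgs5 UMI in 38.6% of cases in the control, against 42.2%, 52.5% and 23.3% in the OSA libraries. Those with a sum of 2 that met the other limits, just outside, had one in 20.8%, 26.7%, 36.5% and 17.6%.

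Rgs5, a regulator of G-protein signalling that marks pericytes in many tissues, was not used by the rule and serves as a check of the label. At least 1 Rgs5 UMI was seen in 86.2% of control members and in 88.7%, 87.6% and 70.5% of those in OSA replicates 1, 2 and 3. After each barcode was thinned to 2000 UMIs the shares were 77.2%, 80.2%, 79.5% and 51.9% of pericytes, against 4.90%, 6.63%, 4.82% and 1.75% of fibroblasts, whose median depth before thinning was 8098 to 8902.5 UMIs and which should lack the gene. The thinned values come from the 311 control members and 368, 288 and 347 OSA members deep enough to thin. Rgs5 transcripts were at 2884 CPM in the control members and at 2992, 2494 and 1052 CPM in the OSA libraries. Thinned Rgs5 shares were higher in smooth muscle barcodes than in fibroblasts, at 25.4% in the control against 38.7%, 27.2% and 28.4% in the OSA libraries. In endothelial barcodes they were 23.0% against 22.7%, 29.0% and 18.6%. The pericyte share was thus far above the fibroblast background in all 4 libraries, and above both other classes by a smaller margin. Rgs5 was lowest in OSA replicate 3, which stood apart.

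OSA replicate 3 also stood apart in transcripts of other cell types. The 14 fibroblast markers (Dcn, Gsn, Col1a1 and others) summed to 12258 CPM in the control members and to 11112, 11472 and 21548 CPM in the OSA libraries. Members in which these transcripts equalled or outnumbered the 4 pericyte markers were 20.6% in the control, against 19.1%, 24.6% and 45.4% in the OSA libraries. The 13 myeloid markers summed to 130 CPM in the control, against 417, 853 and 1629 CPM in the OSA libraries, so every OSA library lay above the control. The 15 endothelial markers summed to 3188 CPM and to 4298, 3887 and 3090 CPM. With the TMM scaling used in the tests (trimmed mean of M-values), the 14 endothelial markers tested summed to 3116 CPM and to 4079, 3879 and 3435 CPM, so all OSA libraries then lay above the control. The 16 smooth muscle markers summed to 2950 CPM and to 2498, 2527 and 2221 CPM. The 14 myofibre markers were at 260 CPM and 264, 355 and 153 CPM, the 8 Schwann markers at 610 CPM and 809, 575 and 402 CPM, the 8 satellite cell markers at 99.1 CPM and 164, 231 and 190 CPM, and the 4 haemoglobin genes at 364 CPM and 435, 993 and 261 CPM. Doublet calls were few, with 2 in the control members and 11, 3 and 14 in the OSA members.

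Because of this mixture a stricter subset, chosen after the data were seen, is given beside all members. In these marker-dominant members the UMIs of the fibroblast, endothelial, myeloid and Schwann lists were each below the sum of the 4 pericyte markers. They numbered 317 in the control, against 371, 236 and 210 in the OSA libraries, or 63.5% and 62.8%, 58.6% and 40.5% of members. Rgs5 was detected in 97.8% of them in the control, against 98.9%, 98.7% and 98.1% in the OSA libraries. It was at 5190 CPM and at 5448, 4640 and 3804 CPM. In the remaining members Rgs5 was detected in 65.9% and in 71.4%, 71.9% and 51.6%. The lists that chose the subset still left 1124 CPM of fibroblast markers in the control, against 1389, 1464 and 2018 CPM in the OSA libraries, and 145 CPM of myeloid markers against 295, 671 and 838 CPM.

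**Figure D1:**
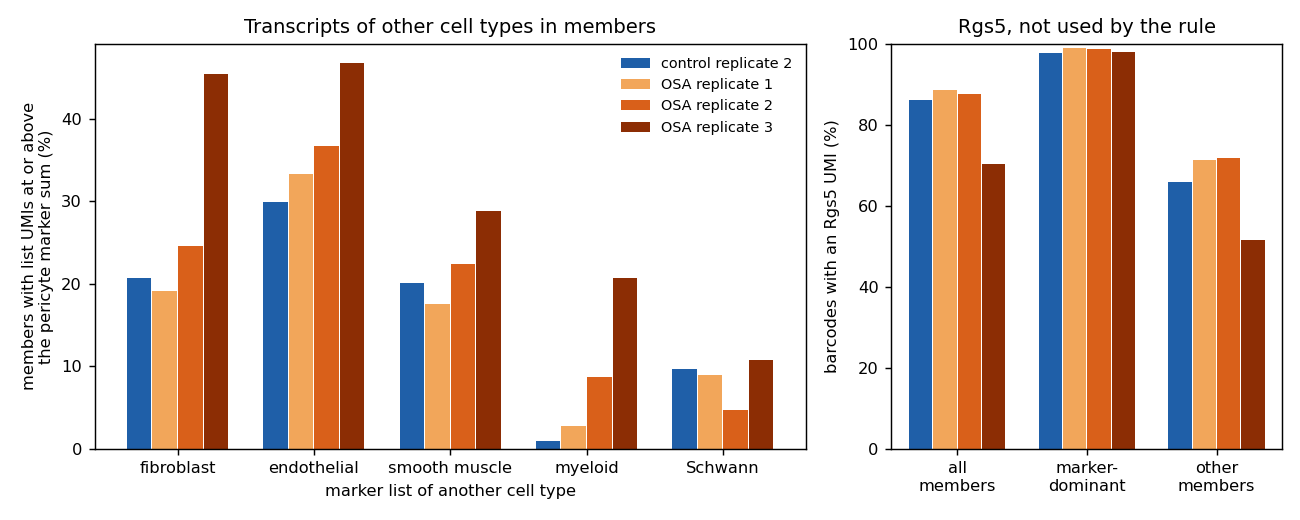
Left, share of pericyte members (in %) in which the UMIs of another cell type's marker list equal or exceed the sum of the 4 pericyte markers, 1 bar per library. Right, share of barcodes with an Rgs5 UMI among all members, marker-dominant members and the other members. OSA replicate 3 has the tallest fibroblast bar (45.4%) and the lowest Rgs5 bar among all members (70.5%), while the marker-dominant bars lie between 97.8% and 98.9%.

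Among genes outside the rule with at least 100 CPM in every library, the 20 with the highest ratio over all other kept barcodes in their least favourable library included Il34, Slc4a8, Rgs5, Lin7a, Casq2, Ano1, Steap4, Cox4i2, Ndufa4l2, Gucy1b1, Pdgfrb, Gja4, Ednrb, Notch3, Cpm, Cystm1, Art3, Plcl1 and Tnfrsf21. They describe the cells that the rule picked, and no test applies. Il34, a ligand of the macrophage receptor CSF1R, was at 476 CPM in control pericytes and at 481, 488 and 309 CPM in the OSA libraries, against 50.04 CPM and 42.0, 42.5 and 34.3 CPM in all other barcodes. Slc4a8, a sodium-dependent bicarbonate transporter, was at 340 CPM and at 383, 305 and 161 CPM, against 27.6 CPM and 28.1, 27.6 and 19.3 CPM. Casq2, the calcium-binding protein of the calcium store, was at 410 CPM and at 376, 298 and 137 CPM. Ano1, a calcium-activated chloride channel, was at 362 CPM and at 277, 354 and 132 CPM. Each of these was lowest in OSA replicate 3. Their place above the other barcodes in that library was built into the choice of genes.

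The nearest cell class, vascular smooth muscle, shared part of this set. Smooth muscle barcodes were chosen by Myh11, Pln and Tesc, and blood endothelial and fibroblast barcodes by Pecam1 with Cdh5 and by Pdgfra. Steap4, a metalloreductase, averaged 315 CPM over the 4 pericyte sums and 15.97 CPM over the smooth muscle sums. Art3, an ADP-ribosyltransferase family member, averaged 427 CPM in pericytes and 31.2 CPM in smooth muscle. Ctxn3 averaged 30.8 CPM in pericytes and at most 0.713 CPM in each of the other 3 classes. Notch3 averaged 403 CPM in pericytes and 563 CPM in smooth muscle, where every library lay above every pericyte value. Cspg4, the proteoglycan NG2, averaged 218 CPM and 244 CPM, with overlapping library values.

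**Figure D2:**
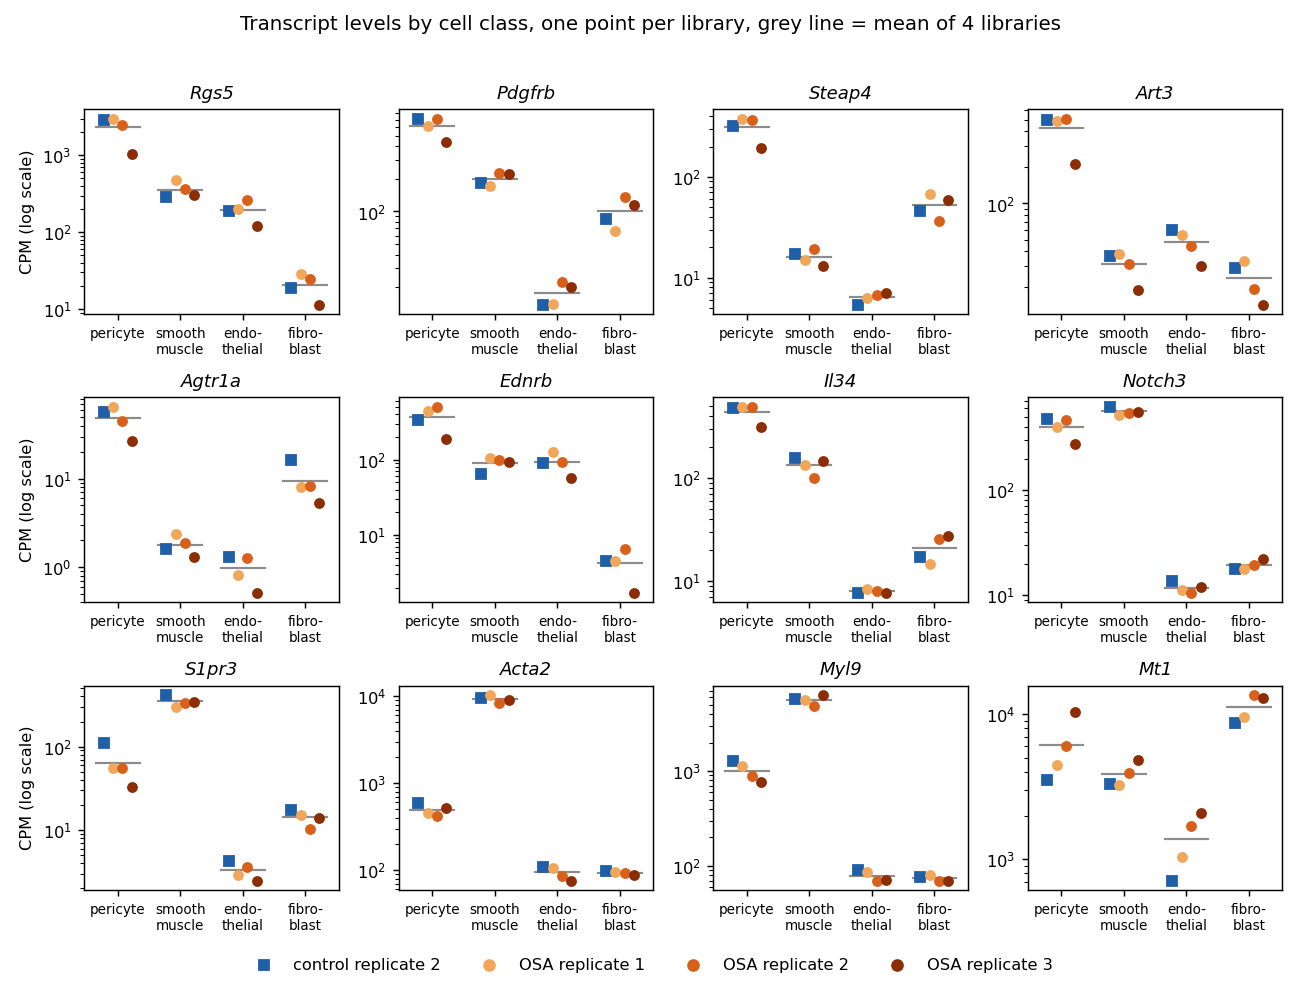
CPM of 12 genes on a log scale in pericyte, smooth muscle, endothelial and fibroblast barcodes, 1 point per library (square, control; circles, OSA) with a grey line at the mean of the 4 libraries. Rgs5, Pdgfrb, Steap4, Art3, Agtr1a, Ednrb and Il34 are highest in pericytes, Acta2, Myl9 and S1pr3 in smooth muscle, and Mt1 in fibroblasts (mean 11191 CPM). These genes were chosen after their values were seen.

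To compare OSA with control, pericyte counts were summed per library and tested with edgeR's quasi-likelihood test on 11946 genes. With Benjamini-Hochberg adjustment 0 genes were higher (0.0%) and 0 were lower (0.0%) at an adjusted p under 0.05. At an unadjusted p under 0.05 there were 284 genes, 2.38% of those tested, of which 165 (1.38%) were higher and 119 (0.996%) lower in OSA. DESeq2's Wald test on the same sums called 4 genes higher, Cxcl2, Rpl39, Mmp3 and Cd74, and 157 genes at an unadjusted p under 0.05. All 3 OSA libraries lay above the control for 24.3% of genes and below it for 24.4%, and the median log2 change over all genes was 0.02. Leaving out OSA replicate 1, 2 or 3 gave 67, 73 and 13 calls, with 1 residual degree of freedom each. Changes below are OSA minus control on the log2 scale with their standard error (SE), levels are CPM scaled by the trimmed mean of M-values (TMM) unless called unscaled, and the adjusted p of every gene named from the test over all members was 1.00. Of these genes Mt3, Angptl4, Cxcl2 and Mmp3 passed each time an OSA library was left out, with changes of 2.54 to 2.70, 2.15 to 2.41, 2.29 to 2.82 and 4.28 to 5.14.

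The genes named next had the smallest unadjusted p among those whose mean log2 CPM reached 5 and whose 3 OSA values lay on 1 side of the control, and none passed the edgeR test. Mt3, a metallothionein that binds zinc and copper, was at 7.93 CPM in the control, against 51.9, 41.1 and 51.0 CPM in the OSA libraries, a log2 difference of 2.59 (SE 0.39). The OSA libraries lay close together and above the control, but few cells carried the gene. A Mt3 UMI was seen in 0.802% of control members and in 4.91%, 3.97% and 3.86% of OSA members. After thinning the shares were 0.643% against 5.16%, 3.13% and 1.73% of pericytes. Fibroblast shares were 0.613% against 1.11%, 0.803% and 2.38%, so the pericyte share in OSA replicate 3 was below that in fibroblasts. Smooth muscle shares were higher in every library, at 16.3% against 14.4%, 10.7% and 15.7%. In marker-dominant members Mt3 had 0 UMIs in the control and lay at 8.76, 8.83 and 11.1 unscaled CPM in the OSA libraries, and the low-count filter removed it. Without doublet calls the difference was 4.91 (edgeR adjusted p = 0.820), and the part of doublets in the level was not tested.

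Angptl4, a secreted inhibitor of lipoprotein lipase that responds to fatty acids and hypoxia, was at 10.98 CPM in the control, against 49.0, 48.5 and 67.2 CPM in the OSA libraries, a difference of 2.32 (SE 0.40). Angptl4 kept this pattern in marker-dominant members, at 10.8 CPM against 51.5, 42.2 and 34.6 CPM. After thinning an Angptl4 UMI was seen in 2.89% of control members and in 5.71%, 6.94% and 7.78% of OSA members, near the fibroblast shares of 2.60% against 8.29%, 5.89% and 8.73%. Unthinned shares of members were 2.61% against 11.5%, 12.9% and 12.5%. Cxcl2, a chemokine that draws neutrophils, was at 25.6 CPM in the control, against 147, 99.7 and 212 CPM in the OSA libraries, a difference of 2.58 (SE 0.49). For both genes every OSA library lay at more than 3 times the control value. Members with a Cxcl2 UMI were 4.01% in the control, against 10.3%, 13.9% and 23.9% in the OSA libraries, and after thinning they were 2.89% against 7.34%, 7.99% and 13.5%. The thinned shares of endothelial cells, whose median depth was 3342 to 3840.5 UMIs, were 2.74% against 6.93%, 6.74% and 13.0%. Pericyte shares lay close to these in every library.

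Prg4, the lubricating proteoglycan lubricin, was at 70.1 CPM in the control, against 172, 369 and 247 CPM in the OSA libraries. Its control level in fibroblasts was 506 CPM. Prg4 in marker-dominant pericytes was at 7.73 CPM in the control, from 5 counts, against 25.1, 51.4 and 40.3 CPM in the OSA libraries. Over all members its change was 1.90 (SE 0.46), which was 0.80 (SE 0.26) above that of fibroblasts, without passing the test. The part of fibroblast transcripts in Prg4 was not tested. Mmp3, the matrix metalloproteinase stromelysin 1, had 3 counts in the control, against 66, 62 and 190 in the OSA libraries. The ratio was 29.9, with a 95% counting interval of 10.2 to 146. The low-count filter removed Mmp3 in marker-dominant members. Cd74, the invariant chain of MHC class II, was at 18.3 CPM in the control, against 68.8, 121 and 206 CPM in the OSA libraries, with a difference of 2.85 (SE 0.73). The order of the 4 libraries was that of the myeloid marker sums, which include Cd74 itself, so the 2 are not independent. The part of myeloid transcripts in Cd74 was not tested. A Cd74 UMI was seen after thinning in 3.54% of control members and in 6.25%, 6.94% and 11.5% of OSA members, at or below the endothelial shares of 4.64% against 6.68%, 8.38% and 15.05%. Rpl39, a ribosomal protein gene with near-identical copies in the genome whose reads the counting could have split, was at 148 CPM and at 821, 721 and 419 CPM.

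The other genes with higher OSA values had smaller differences. Marcksl1 (17.1 CPM against 62.0, 37.1 and 45.3), Rpl22l1 (22.6 against 65.9, 66.04 and 42.0), Chst11 (15.9 against 37.8, 32.3 and 52.0), Tent5a (21.3 against 41.2, 43.1 and 52.4) and Fcf1 (17.7 against 35.4, 39.8 and 38.6) differed by 1.09 to 1.499 on the log2 scale. Chst11, a chondroitin sulfotransferase, and Tent5a, a noncanonical poly(A) polymerase, had OSA values that did not overlap the control, as the rule required.

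The gene with the smallest p among those lower in OSA was S1pr3, a receptor for sphingosine 1-phosphate that promotes contraction in mural cells. S1pr3 was at 109 CPM in the control, against 52.8, 55.9 and 36.7 CPM in the OSA libraries, a difference of -1.17 (SE 0.29). Members with a S1pr3 UMI were 24.4% in the control, against 14.6%, 15.1% and 10.6% in the OSA libraries. After thinning they were 19.9% against 12.5%, 12.15% and 7.20%, where endothelial shares were 0.922% against 0.533%, 0.514% and 0.349%. Smooth muscle shares were also lower in every OSA library, at 53.5% in the control against 41.4%, 41.0% and 40.8%. In marker-dominant members S1pr3 was at 205 CPM in the control, against 104, 103 and 104 CPM in the OSA libraries, so the 3 OSA values were almost equal and the control lay at nearly 2 times their level (difference -0.99, SE 0.25, edgeR adjusted p = 0.262). Spon1, a secreted matrix protein, was at 58.5 CPM and at 30.1, 22.9 and 19.1 CPM. Thbs1, the antiangiogenic matrix protein thrombospondin 1, was at 79.9 CPM and at 47.5, 30.3 and 30.5 CPM, but in marker-dominant members at 17.0 CPM against 11.3, 20.2 and 11.5 CPM, where the groups overlapped.

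Atg4a, a protease of autophagy, was at 464 CPM in the control, against 267, 194 and 202 CPM in the OSA libraries. Chordc1, a cochaperone of HSP90, was at 72.0 CPM and at 39.7, 35.04 and 31.5 CPM. Lmod1, a smooth muscle actin nucleator, was at 137 CPM and at 89.7, 80.9 and 73.4 CPM. The remaining genes with lower OSA values were C7, a terminal complement component, at 67.7 CPM and 41.7, 26.3 and 28.6 CPM, Cxcl10, an interferon-induced chemokine, at 65.9 CPM and 33.0, 14.8 and 35.3 CPM, and Sgip1, Lncppara, Banp and the antisense RNA Kcnq1ot1, with differences of -0.82 to -0.89. Whether counting used strand is not stated, so Kcnq1ot1 reads cannot be told apart from those of its overlapping partner. C7 and Cxcl10 are also fibroblast transcripts: in fibroblasts Cxcl10 was at 179 unscaled CPM in the control, against 73.6, 45.9 and 70.6 CPM in the OSA libraries. The direction turned for C7 when the rule was applied after thinning (0.26) and for Cxcl10 among members with an Rgs5 UMI (0.59).

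**Figure D3:**
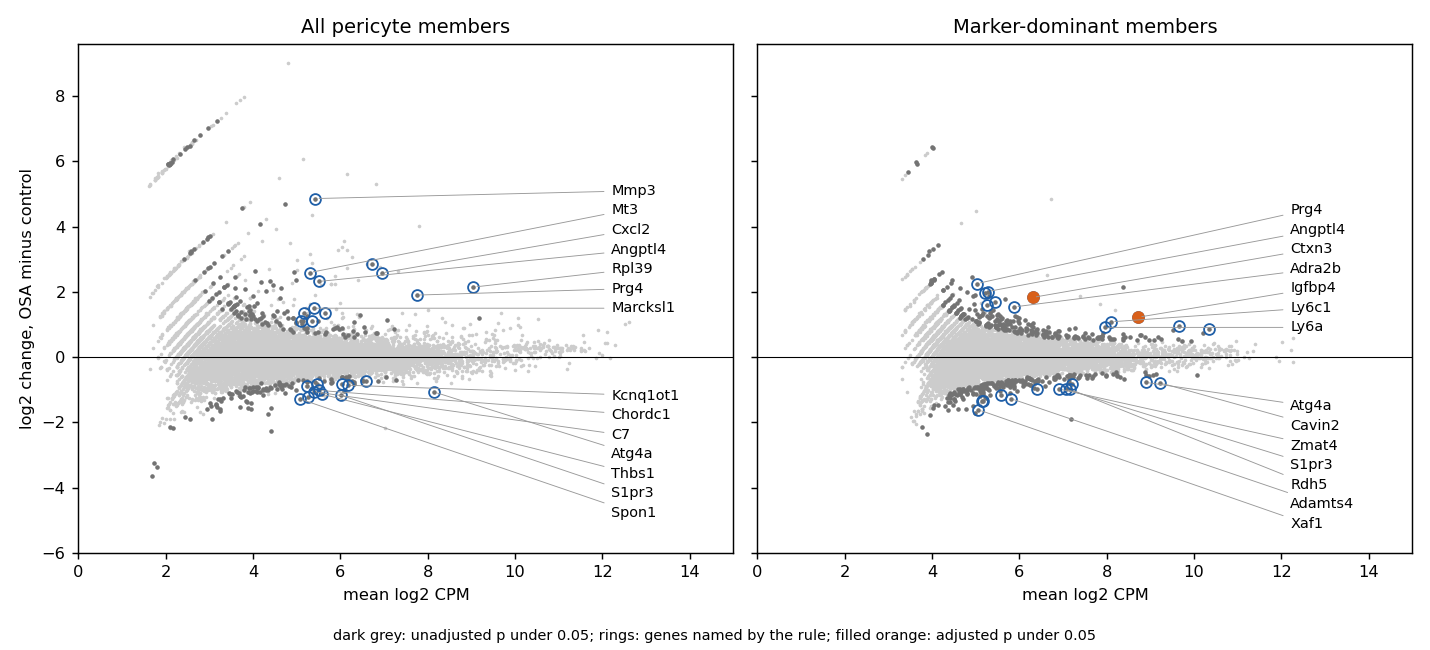
Log2 change (OSA minus control) against mean log2 CPM for every gene tested, leaving out the genes the rule used, in all pericyte members (left) and in marker-dominant members (right). Rings are the genes named by the rule, dark grey points have an unadjusted p under 0.05, and the 2 filled points are the genes that passed in marker-dominant members (Igfbp4 and Ctxn3).

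Of the receptors and signalling genes that set capillary tone 0 passed the test. The channel genes Kcnj8 and Abcc9 were used by the rule and are not in this list. Of 27 measured genes 9 had higher and 18 lower values in OSA, where 52.5% of all genes tested had a change above 0. All OSA libraries lay above the control for 1 and below it for 10, against 24.3% and 24.4% of all genes, and the median change was -0.29 against 0.02. In marker-dominant members the median was -0.01, with 5 of 19 genes above the control in every OSA library and 7 below, against 24.4% and 24.5% of all genes tested there. Ednrb, the endothelin B receptor, was at 333 unscaled CPM in control members and at 440, 502 and 188 CPM in OSA members, and the groups overlapped. Ednra, the endothelin A receptor, was at 135 unscaled CPM and at 121, 96.4 and 70.3 CPM. Agtr1a, the type 1 angiotensin receptor, was at 56.7 unscaled CPM and at 65.3, 44.5 and 27.0 CPM, and stood out by class, since smooth muscle held only 1.30 to 2.37 CPM and fibroblasts 5.29 to 16.4 CPM.

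The nitric oxide pathway was shared with smooth muscle. Gucy1a1 and Gucy1b1, the subunits of soluble guanylate cyclase, averaged 407 unscaled CPM and 265 CPM in pericytes and 995 CPM and 281 CPM in smooth muscle. Prkg1, the kinase activated by cyclic GMP, averaged 635 unscaled CPM and 1123 CPM. Gucy1a1 was at 523 unscaled CPM in control pericytes and at 481, 450 and 176 CPM in the OSA libraries, with the low value again in OSA replicate 3. Adra2b, an alpha 2 adrenergic receptor, was at 17.4 unscaled CPM in control members and at 27.0, 32.4 and 14.995 CPM, so the groups overlapped over all members. In marker-dominant members Adra2b was at 23.2 CPM in the control, against 60.3, 71.6 and 74.9 CPM in the OSA libraries, a difference of 1.54 (SE 0.42, edgeR adjusted p = 0.262).

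Contractile genes were present at a fraction of the smooth muscle level. Acta2, smooth muscle actin, averaged 496 unscaled CPM in pericytes and 9353 CPM in smooth muscle, and Tagln 424 CPM and 7494 CPM. Cald1, caldesmon, and Myl9, a myosin light chain, averaged 1283 unscaled CPM and 1014 CPM in pericytes against 3220 CPM and 5653 CPM. Of the 25 contractile genes measured 0 passed, 7 were higher and 18 lower, and all OSA libraries lay above the control for 4 and below it for 9, against 24.3% and 24.4% of all genes. Acta2 was at 585 unscaled CPM in the control, against 454, 423 and 521 CPM in the OSA libraries, and Myl9 at 1271 CPM and at 1130, 893 and 763 CPM. All OSA values of Myl9 lay below the control with and without TMM scaling, but TMM-scaled Acta2 was at 572 CPM and at 432, 423 and 579 CPM, where the groups overlapped. In marker-dominant members 12 of 23 contractile genes lay below the control in every OSA library, against 24.5% of all genes tested there, with a median of -0.15 against 0.02. The smooth muscle marker list shares Tagln with the contractile genes described here, so it is not a separate measure. In that subset 10 of its 13 genes lay below the control in every OSA library, and its part in the contractile values was not tested.

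No PDGF or Notch gene passed the test. Pdgfrb, the receptor that holds pericytes at the capillary, was at 716 unscaled CPM in the control, against 614, 711 and 436 CPM in the OSA libraries, and in marker-dominant members at 1260 CPM and at 1135, 1345 and 1247 CPM. Its ligand gene Pdgfb averaged 24.3 unscaled CPM in pericytes and 289 CPM in endothelial cells. Of 10 PDGF genes measured 7 were higher and 3 lower, with a median of 0.09, and 3 lay above the control in every OSA library, against 24.3% of all genes. Notch3 was at 472 unscaled CPM in the control, against 403, 462 and 277 CPM in the OSA libraries. Heyl, a Notch target, was at 88.5 unscaled CPM and at 97.9, 96.4 and 64.7 CPM, with no order between the groups. Of 16 Notch genes 9 were higher and 7 lower, with a median of 0.03. Over all genes 52.5% had a change above 0 and the median was 0.02.

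The abundant chemokine and angiogenic genes of pericytes included Cxcl12 and Angptl2. Cxcl12, the chemokine that retains CXCR4-bearing cells, was at 909 unscaled CPM in control members and at 862, 604 and 440 CPM in OSA members, and in marker-dominant members at 1368 CPM and at 1144, 787 and 840 CPM. All OSA values lay below the control in both sets, and the difference in marker-dominant members was -0.56 (SE 0.24, edgeR adjusted p = 0.883). Angptl2 was at 226 unscaled CPM and at 202, 181 and 135 CPM. Of 26 angiogenic genes 10 were higher and 16 lower, against 52.5% of all genes with a change above 0, and 10 lay below the control in every OSA library, against 24.4%. In marker-dominant members 2 of 17 were higher and 15 lower, with a median of -0.18, and 7 lay below the control in every OSA library, against 52.2% above 0 and 24.5% below in every library over all genes tested there.

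Cxcl1, a neutrophil chemokine like Cxcl2, had lower and not higher values in OSA. This gene and Il6 were singled out after their values were seen. In marker-dominant members Cxcl1 was at 309 CPM in the control, against 127, 64.2 and 37.4 CPM in the OSA libraries, a difference of -1.90 (SE 0.42, edgeR adjusted p = 0.496), while Cxcl2 was at 15.5 CPM and at 37.7, 40.4 and 83.5 CPM. Il6, the cytokine interleukin 6, was at 57.2 CPM and at 17.6, 14.7 and 20.2 CPM there, a difference of -1.72 (SE 0.43, edgeR adjusted p = 0.262). Over all members Il6 was at 65.9 CPM and at 88.7, 66.7 and 46.2 CPM, where the groups overlapped, and Cxcl1 at 585 CPM and at 383, 278 and 503 CPM. Of 20 chemokine and cytokine genes measured in all members 11 were higher and 9 lower, 0 passed, and 6 lay above and 5 below the control in every OSA library, against 24.3% and 24.4% of all genes.

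Basement membrane genes were abundant, and 0 passed the test. Col4a1 and Col4a2, the main type IV collagen chains, averaged 699 unscaled CPM and 928 CPM in pericytes, 369 CPM and 619 CPM in smooth muscle and 1276 CPM and 1816 CPM in endothelial cells. Lama2, the laminin alpha 2 chain, averaged 265 unscaled CPM in pericytes and 31.1 CPM in smooth muscle, and Lama5, the alpha 5 chain, 10.7 CPM and 194 CPM. Of 24 genes in the list 10 were higher and 14 lower, with 3 above and 10 below the control in every OSA library, against 24.3% and 24.4% of all genes, and a median of -0.13. Col4a1 was at 811 unscaled CPM in the control, against 665, 728 and 593 CPM in the OSA libraries. The interstitial matrix list, whose genes include fibroblast products, had 28 of 35 genes higher, against 52.5% of all genes. Of its genes 15 lay above the control in every OSA library, against 24.3%. Its summed level of 11334 CPM in the control, against 11980, 13420 and 24898 CPM in the OSA libraries, peaked in OSA replicate 3 together with the fibroblast markers. Their part in it was not tested. The list kept 26 genes in marker-dominant members, of which 18 were higher, against 52.2% of all genes tested there. Every OSA library lay above the control for 11, against 24.4%. The sums there were 5456 CPM in the control, against 5824, 8751 and 8354 CPM in the OSA libraries.

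Metallothioneins Mt1 and Mt2, small zinc-binding proteins induced by metals, glucocorticoids and inflammation, had higher values in every OSA library without passing the test. Mt1 was at 3463 CPM in the control, against 4226, 6026 and 11436 CPM in the OSA libraries, and Mt2 at 3313 CPM and at 3669, 5930 and 10326 CPM. In marker-dominant members Mt1 was at 776 CPM and at 913, 1316 and 1717 CPM, a difference of 0.75 (SE 0.27), and Mt2 at 468 CPM and at 590, 866 and 1043 CPM, a difference of 0.82 (SE 0.26), with edgeR adjusted p of 0.786 and 0.574. The level was thus several times lower in marker-dominant members, while the order of the 4 libraries was the same. Endothelial cells of the same libraries showed this order too, with Mt1 at 690 CPM in the control and at 1006, 1693 and 2226 CPM. After thinning a Mt1 UMI was seen in 73.6% of control members and in 79.6%, 91.3% and 95.7% of OSA members, where endothelial shares were 49.9% against 60.8%, 81.2% and 83.3%. Unthinned shares of members were 67.1% against 78.2%, 89.6% and 92.3%.

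Hypoxia genes that mark pericytes were lowest in OSA replicate 3. Ndufa4l2 and Cox4i2, variants of respiratory chain subunits that hypoxia induces in other cells, were at 1054 unscaled CPM and 626 CPM in the control. Ndufa4l2 was at 1060, 860 and 545 unscaled CPM in the OSA libraries and Cox4i2 at 586, 655 and 334 CPM. In marker-dominant members Ndufa4l2 was at 1998 unscaled CPM in the control, against 1971, 1623 and 2021 CPM in the OSA libraries, with the groups overlapping. Of 42 genes in the hypoxia and glycolysis list 27 were higher and 15 lower, where 52.5% of all genes had a change above 0. In every OSA library 15 lay above and 6 below the control, against 24.3% and 24.4% of all genes, and the median was 0.09. Hk2, hexokinase 2, was at 27.8 CPM in the control, against 50.2, 71.6 and 86.4 CPM in the OSA libraries in marker-dominant members, a difference of 1.252 (SE 0.41, edgeR adjusted p = 0.590).

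The test on marker-dominant members, added after the data were seen, called 2 of 8944 genes higher (0.0224%) and 0 lower (0.0%) at an adjusted p under 0.05, and 454 (5.08%) at an unadjusted p under 0.05, of which 251 (2.81%) were higher and 203 (2.27%) lower. The log2 change was above 0 for 52.2% of these genes and for 52.5% of those tested in all members. Igfbp4, a secreted protein that binds insulin-like growth factors, was at 210 CPM in the control, against 433, 435 and 619 CPM in the OSA libraries. It rose by 1.22 (SE 0.26, edgeR adjusted p = 0.0465), and all OSA libraries lay above the control at about 2 to 3 times its level. Ctxn3, the membrane protein cortexin 3, was at 26.3 CPM in the control, from 17 counts, and at 82.9, 97.2 and 107 CPM in the OSA libraries. It rose by 1.83 (SE 0.38, edgeR adjusted p = 0.0465). Both calls held without OSA replicate 1, where 27 genes passed, and were lost without OSA replicate 2 or 3, where 3 and 1 genes passed.

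Beside these values, Igfbp4 was also a transcript of fibroblasts, at 1281 unscaled CPM in the control, against 1446, 1158 and 1953 CPM in the OSA libraries, and the fibroblast markers left in marker-dominant members were higher in each OSA library than in the control. Their part in Igfbp4 was not tested. Igfbp4 also lay above the control in every OSA library in smooth muscle, at 496 CPM against 597, 746 and 1002 CPM, and in endothelial cells, at 86.0 CPM against 92.3, 118 and 277 CPM. Over all members its change was not shown to differ from that of smooth muscle (0.37, SE 0.31), endothelial cells (0.24, SE 0.17) or fibroblasts (0.75, SE 0.39), with edgeR adjusted p of 1.00, 0.997 and 1.00. Over all members Igfbp4 was at 767 CPM and at 931, 1321 and 2868 CPM. For Ctxn3 the other 3 classes held at most 1.36 unscaled CPM in any library, and over all members it was at 17.1 TMM-scaled CPM in the control, against 39.3, 41.1 and 25.7 CPM in the OSA libraries. Of 10 genes of the insulin-like growth factor system measured in marker-dominant members 1 rose, 7 had higher and 3 lower values, against 52.2% of all genes with a change above 0, and the median was 0.53.

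Other genes with small unadjusted p in marker-dominant members did not pass. Ly6c1, an endothelial surface antigen, was at 148 CPM in the control, against 280, 334 and 334 CPM in the OSA libraries (difference 1.08, SE 0.26, edgeR adjusted p = 0.179), and Ly6a was at 148 CPM and at 264, 295 and 279 CPM. Ly6c1 was at 2373 CPM in control endothelial cells and at 3819, 4448 and 5465 CPM in those of the OSA libraries. Thbs4, a matrix protein of tendon and muscle, was at 10.8 CPM and at 27.6, 53.2 and 54.7 CPM, Drap1 at 476 CPM and at 651, 857 and 1256 CPM, and the small heat shock gene Hspb1 at 805 CPM and at 997, 1716 and 1728 CPM. Lower values in every OSA library were found for Rdh5, a retinol dehydrogenase (221 CPM against 142, 88.1 and 95.1), Adamts4, an aggrecanase (92.7 against 47.7, 36.7 and 23.0), Xaf1 (58.7 against 15.1, 27.5 and 14.4), Zmat4 (182 against 103, 103 and 63.4), Cavin2, a caveolar coat protein (868 against 555, 556 and 380), Retnla (58.7 against 20.1, 20.2 and 31.7), Gadd45g (127 against 69.1, 51.4 and 74.9), Zfp24 (57.2 against 26.4, 18.3 and 20.2), Specc1 (213 against 136, 110 and 112) and Galnt16 (74.2 against 35.2, 31.2 and 31.7). Over all members Gadd45g was at 285 CPM against 276, 216 and 473 CPM, where the groups overlapped and the difference was 0.17.

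**Figure D4:**
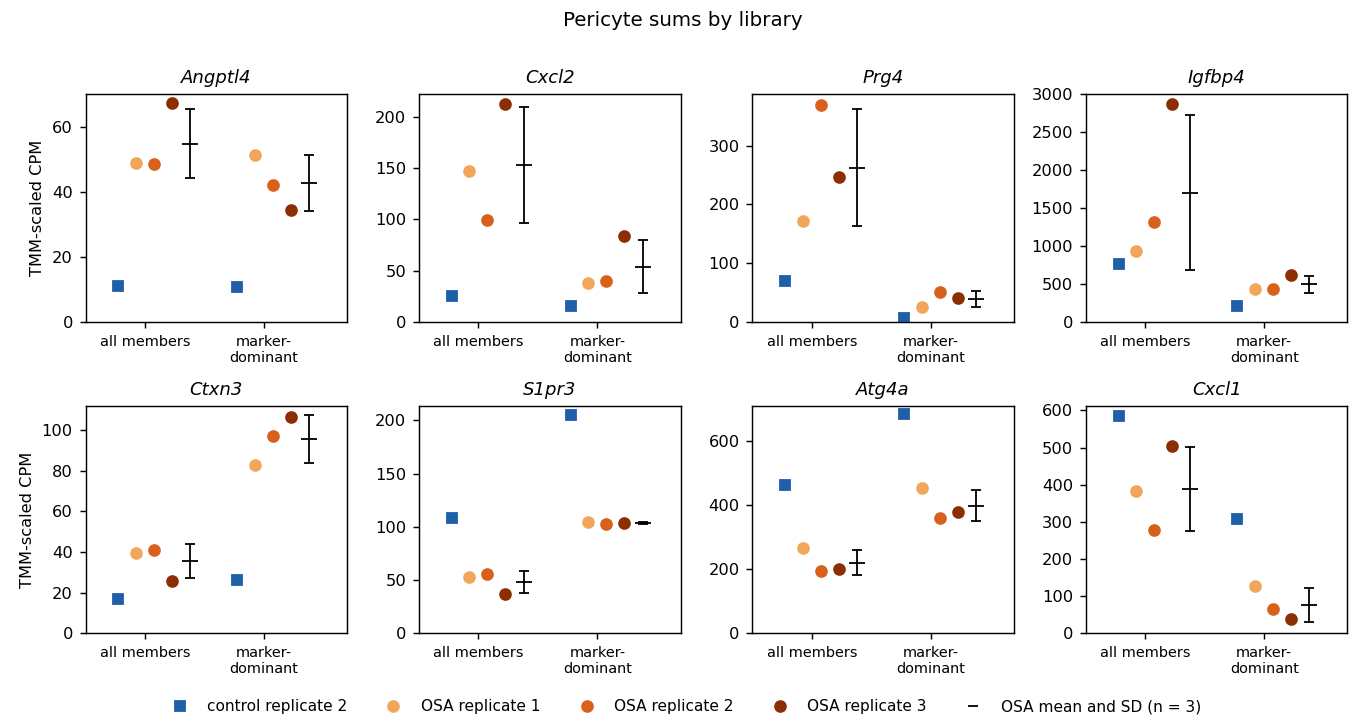
TMM-scaled CPM of 8 genes by library in all pericyte members and in marker-dominant members (square, control; circles, OSA; bars, mean and SD of the 3 OSA libraries). Igfbp4 and Ctxn3 passed the test in marker-dominant members. S1pr3 lies at 103 to 104 CPM in the 3 OSA libraries of that subset, below the control at 205 CPM.

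Whether pericytes differed from their neighbours was tested as the difference between their OSA change and that of smooth muscle, endothelial cells and fibroblasts of the same libraries, which share the control library. Against smooth muscle 1 of 13445 genes passed (0.00744%), with 520 (3.87%) at an unadjusted p under 0.05. That gene was Mt3, whose change was 2.68 (SE 0.36) higher in pericytes (edgeR adjusted p = 0.0318). TMM-scaled Mt3 in smooth muscle was at 89.2 CPM in the control, against 86.8, 63.5 and 102 CPM in the OSA libraries, where the groups overlapped. Against fibroblasts 1 of 14118 genes passed (0.00708%), with 452 (3.20%) at an unadjusted p under 0.05. That gene was Cd74, whose change was 2.87 (SE 0.32) higher in pericytes (edgeR adjusted p = 0.0291). Cd74 in fibroblasts was at 57.6 CPM in the control, against 32.9, 41.6 and 102 CPM in the OSA libraries. After thinning a Cd74 UMI was seen in 4.59% of control fibroblasts and in 5.16%, 6.69% and 15.9% of OSA fibroblasts. Pericyte shares were 3.54% against 6.25%, 6.94% and 11.5%. Without doublet calls neither passed: the Mt3 value became 4.96 (edgeR adjusted p = 0.846) and the Cd74 value 0.94 (edgeR adjusted p = 1.00). In marker-dominant members they were 7.11 and 1.56 and did not pass (edgeR adjusted p = 0.273 for both). Mt3 passed without each OSA library in turn, and Cd74 did not.

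Against endothelial cells 0 of 16027 genes passed in edgeR's test (0.0%), with 666 (4.16%) at an unadjusted p under 0.05, and no other tool was run on this difference. The smallest p there belonged to Prg4, whose change was 1.56 (SE 0.26) higher in pericytes, followed on the same side by the myeloid gene Lyz2 and by Mt3, Angptl4 and Chst11. Angptl4 in endothelial cells was at 7.77 CPM in the control, against 10.7, 9.86 and 13.9 CPM in the OSA libraries. In fibroblasts it was at 15.2 CPM and at 45.4, 32.4 and 83.4 CPM, and the difference of changes from fibroblasts was 0.57 for Angptl4 (SE 0.46, edgeR adjusted p = 1.00) and 0.11 for Chst11 (SE 0.34, edgeR adjusted p = 1.00), so neither was shown to differ from fibroblasts. On the other side, Thbs1 in endothelial cells was at 8.44 CPM and at 12.6, 20.4 and 15.5 CPM, all above the control, while in pericytes all OSA values lay below it (difference of changes -2.04, SE 0.43, edgeR adjusted p = 0.850). For S1pr3, smooth muscle was at 417 CPM in the control, against 289, 335 and 361 CPM in the OSA libraries, and endothelial cells held at most 4.16 CPM.

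**Figure D5:**
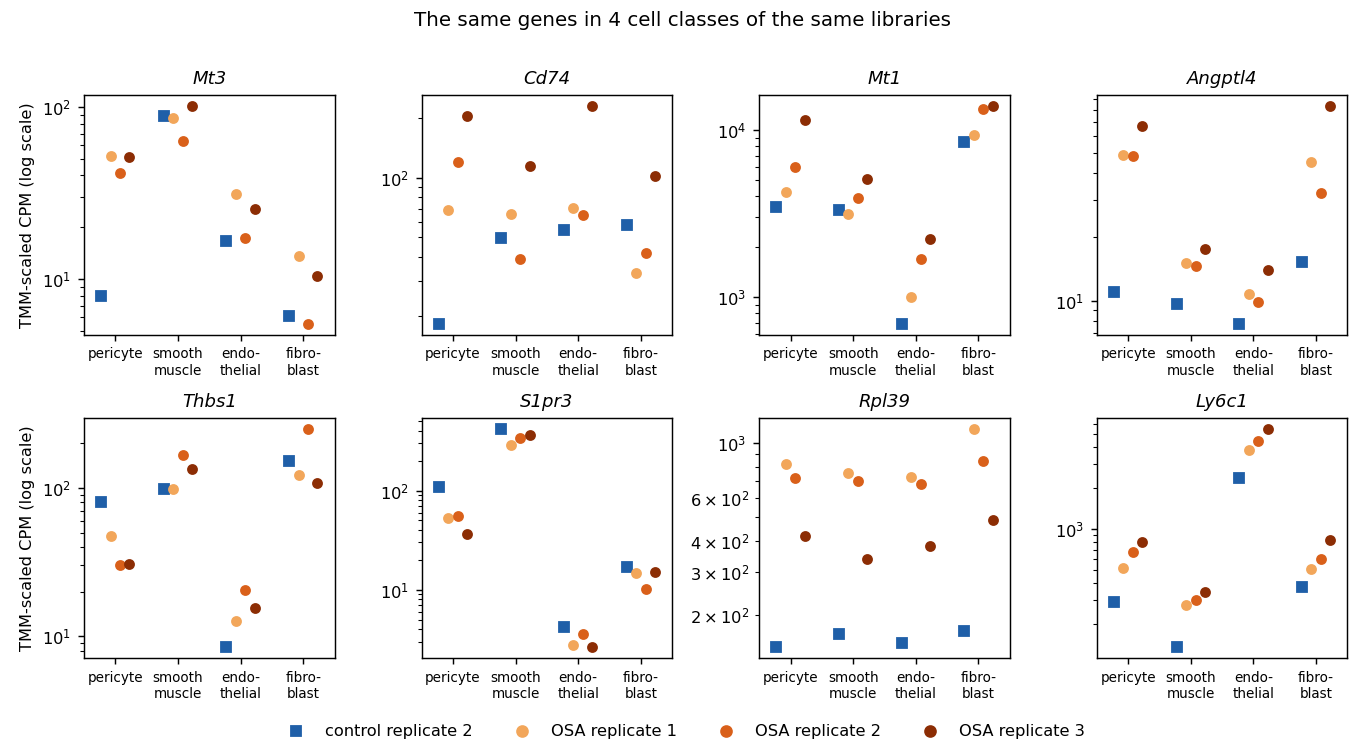
TMM-scaled CPM (log scale) of 8 genes in pericyte, smooth muscle, endothelial and fibroblast sums of the same 4 libraries (square, control; circles, OSA). Mt3 in pericytes is at 7.93 CPM in the control and 41.1 to 51.9 CPM in OSA while smooth muscle values overlap, and Rpl39 and Ly6c1 are above the control in all 4 classes.

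Variation from cell to cell was ranked within each library, and genes are ordered by their lowest place over the 4 libraries. Over members thinned to 2000 UMIs, the variance to mean ratio had a median of 1.232 to 1.254 over 1409 genes in the 4 libraries. Malat1, a nuclear noncoding RNA, led in every library, with ratios of 43.6 in the control, against 35.8, 41.8 and 30.5 in the OSA libraries. The first 12 went on with Mt2, Mt1, Dcn, Gsn, Mgp, Apod, Fos, Tagln, Col1a1, Pi16 and Fabp4, whose order differed between libraries. Of these Dcn, Gsn, Col1a1 and Pi16 are in the fibroblast list, Tagln in the smooth muscle list and Fabp4 in the endothelial list. Mt2 had ratios of 23.6 in the control, then 27.0, 28.9 and 27.2. Dcn had ratios of 25.7 in the control, against 26.0, 15.5 and 21.8 in the OSA libraries at means of 5.44 and 4.80, 3.05 and 9.05 UMIs. In marker-dominant members the order changed: Malat1 was followed by Fos, Mgp, Atg4a, Hspa1a, Jun, Junb, Tagln, Sparc, Egr1, Fosb and Tnfaip6. Fos, an immediate early gene that tissue dissociation can induce, had ratios there of 11.2 in the control, against 10.7, 16.4 and 15.5 in the OSA libraries, at means of 7.83 and 8.10, 8.08 and 7.35 UMIs. Atg4a had ratios of 9.63 and 6.03, 5.92 and 4.86 at means of 1.59 UMIs in the control, against 0.955, 0.657 and 0.703 UMIs in the OSA libraries.

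The share of pericytes among barcodes did not differ beyond the spread of the OSA libraries. Pericytes were 3.64% of control barcodes (exact binomial 95% interval 3.34 to 3.97) and 3.76% (3.47 to 4.07), 3.20% (2.90 to 3.52) and 3.62% (3.32 to 3.94) in the OSA libraries. The OSA mean was 3.53% ± 0.291 (SD, n = 3), 0.115 percentage points below the control (exact two-sided permutation test, p = 0.75, with 0.25 the smallest p this design allows). The intervals cover counting error only. Marker-dominant members were 2.31% of control barcodes and 2.36%, 1.88% and 1.47% in the OSA libraries, a mean difference of -0.413 percentage points, with the lowest share in OSA replicate 3.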

How the data were processed

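Single-cell RNA libraries of 3 control and 3 OSA samples were listed, of which 4 had a count matrix used here. The deposited matrices hold UMI counts of 33696 genes per barcode, made by the authors with Cell Ranger 9.0.1 per the file headers, on GRCm39 (mm39) per the submitters' processing notes. The authors' counting settings are not given in the sources used here. Barcodes with at least 300 genes were kept, and the 4 cell classes were chosen by marker UMIs. Doublets were called with Scrublet in scanpy 1.11.5 (expected rate 0.1) and were kept in the main analysis.

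Counts were summed per library and class. Genes passed filterByExpr, were scaled by TMM and were tested with edgeR 4.0.16 (robust quasi-likelihood fit, R 4.3.3) with Benjamini-Hochberg adjustment over all genes. With 2 residual degrees of freedom, the fit takes the spread of the single control from the OSA libraries. DESeq2 1.42.0 was an alternative. Differences between classes were tested as an interaction with library as a block. The fit was tested on simulated data. The 11 genes of the rule were left out of all counts of called genes.

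Named genes were 12 per direction that passed, whose mean log2 CPM reached 5 and whose OSA values lay on 1 side, or otherwise those with the smallest unadjusted p, with up to 6 abundant members of each list, 20 leading genes, 12 genes by variance to mean ratio and up to 8 per direction and interaction. Symbols of clone type were not named. Members and the 36 gene lists were chosen with earlier results of these data known. Intervals cover counting error only. Some genes that meet the rules are not reported here.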

Additional observations from a re-analysis of the deposited data

Results flagged for a closer look

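Mt3 was singled out because its OSA change differed between pericytes and smooth muscle by 2.68 on the log2 scale (SE 0.36, edgeR adjusted p = 0.0318). It rests on 13 control UMIs, and it did not pass without doublet calls (4.96, edgeR adjusted p = 0.846).

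Cd74 was singled out because its OSA change differed between pericytes and fibroblasts by 2.87 (SE 0.32, edgeR adjusted p = 0.0291). Its pericyte values followed the order of the myeloid marker sums, which include Cd74 itself and whose part was not tested. Thinned shares with a Cd74 UMI were higher in every OSA library in pericytes and in fibroblasts. Without doublet calls the difference was 0.94 (edgeR adjusted p = 1.00).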

How the results depend on the processing

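With 1 control library no result separates condition from library, and leaving out an OSA library leaves 1 residual degree of freedom. No paired analysis was possible because only replicate number 2 occurs in both groups. The count of 0 called pericyte genes was kept with relative log expression scaling, at least 10 counts in every library, a marker sum of at least 5, no endothelial UMI, no doublet calls, at least 1000 genes, an Rgs5 UMI and equal totals. It became 26 without a filter on low counts (23 higher, 3 lower), 3 under the rule after thinning, 4 with DESeq2, and 13 to 73 leaving out 1 OSA library. It was 2 in marker-dominant members, with 1 to 27 leaving out 1 OSA library, a subset chosen after seeing the data. The smooth muscle difference went from 1 gene to 0 at 10 counts in every sum and without doublet calls, 10 in marker-dominant members and 15 to 19 leaving out a library. The endothelial difference went from 0 genes to 13 in marker-dominant members and 0 to 31 leaving out a library. The fibroblast difference went from 1 gene to 0 with relative log expression scaling, at 10 counts, without doublet calls and without each OSA library (0 to 0), and to 24 in marker-dominant members. The share difference was -0.413 percentage points in marker-dominant members. The direction turned for C7 (0.26) and Adamts4 (0.019) under the rule after thinning, and for Cxcl10 (0.59) and Thbs4 (-0.056) among members with an Rgs5 UMI. Leaving out 1 OSA library, Galnt16 was at -0.67 to 0.0016 (the highest without OSA replicate 1) and Gadd45g at -0.20 to 0.40 (the lowest without OSA replicate 3). Gadd45g was at -0.97 in marker-dominant members, and there at -1.04, -0.82 and -1.04 without OSA replicates 1, 2 and 3. The cause of these changes was not tested. Of the named genes' values over all members under settings other than leaving out a library, 446 kept direction and side of the threshold, 12 newly passed, 5 no longer passed and 4 turned. Leaving out a library, 104 kept both, 23 newly passed, 3 no longer passed and 2 turned.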

Other observations

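Ribosomal protein genes had higher values in OSA for 49 of 49 measured, against 52.5% of all genes, with 28 above the control in every OSA library, against 24.3%, 0 passing edgeR's test and a median of 0.29. The summed level was 71909 CPM in the control, against 72064, 79098 and 114210 CPM in the OSA libraries, highest in OSA replicate 3 together with the fibroblast markers, whose part was not tested. Among marker-dominant members 46 of 49 were higher, against 52.2% of all genes tested there. The sums there were 46029 CPM in the control, against 45032, 51681 and 62130 CPM, so OSA replicate 1 lay below the control. Rpl39 was lower in the control in all 4 classes, for example at 172 CPM against 1143, 849 and 485 CPM in fibroblasts.

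Of 25 immediate early genes 13 were higher and 12 lower, against 52.5% of all genes with a change above 0, with 0 passing and a median of 0.02. Of 18 acute-phase and complement genes 14 were higher and 4 lower, against 52.5% of all genes with a change above 0, with 0 passing and a median of 0.42. Their summed level of 2065.5 CPM in the control, against 2285, 2333 and 5733 CPM in the OSA libraries, was again highest in OSA replicate 3. In marker-dominant members 11 of 12 were higher, against 52.2% of all genes tested there, with 0 passing and a median of 0.89. All OSA libraries lay above the control for 8, against 24.4%, and the sums were 1353.5 CPM in the control against 1565, 1659 and 1895 CPM. Saa3, an acute-phase serum amyloid, had 3 counts in the control, against 312, 4 and 252 in the OSA libraries, a ratio of 49.9 with a counting interval of 17.0 to 243, and OSA replicate 2 lay near the control.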
